A study of Homo sapiens with 6 samples.

Results

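Long noncoding RNAs are transcripts that act without being translated, and 10 of them were followed in melanoma cells treated with a methionine-degrading enzyme: MALAT1, NEAT1, TUG1, KCNQ1OT1, OIP5-AS1, NORAD, MIAT, PVT1, CYTOR and DANCR. They were chosen by name and are 10 of the 58523 genes to which transcripts of the deposited tables could be assigned. A375 is an established human melanoma cell line grown here in serum-containing medium. The treated group is 3 cultures given hMGL for 24 h, an engineered human enzyme of high activity that degrades methionine. The control group is 3 cultures that received no hMGL, and all 6 cultures come from the 1 cell line. The labels call the cultures independent of one another, and they do not say whether the control dishes received a vehicle or whether the libraries selected polyadenylated RNA. RNA came from whole cells, so nuclear and cytoplasmic RNA were measured together, and the place of each transcript in the cell was not measured.

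MALAT1 and NEAT1 are neighbours on chromosome 11 and stay in the nucleus. MALAT1 gathers in nuclear speckles, which store splicing factors, while NEAT1 builds paraspeckles, bodies that hold RNA-binding proteins in the nucleus. NEAT1 is made in a short polyadenylated form and a long form that starts at the same promoter, and it is the long form that scaffolds the paraspeckle. KCNQ1OT1 is an imprinted nuclear RNA read from within KCNQ1 on the opposite strand, MIAT is found largely in the nucleus, and TUG1 on both sides of the nuclear membrane. NORAD works in the cytoplasm, where it holds RNA-binding proteins of the Pumilio family, and CYTOR, DANCR and OIP5-AS1 are also found there. PVT1 lies beside the MYC oncogene.

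Libraries held 50760266 to 59954677 estimated counts, and 22580 genes were tested together, all 10 long noncoding RNAs among them. The treatment moved a large part of the transcriptome. The edgeR test called 69.4% of all genes at an adjusted p under 0.05, 34.9% higher and 34.5% lower in treated cells, and 49.1% of the 4749 other long noncoding genes tested (28.0% higher and 21.1% lower). In 73.3% of all genes the treated and control libraries did not overlap in CPM (counts scaled to a common library size). Of the 11 melanocyte lineage markers 10 passed the filter on low counts, 4 of them higher, 4 lower and 2 not past the test. ERBB3, S100B, EDNRB and SOX10 were lower in treated cells (log2 fold changes −1.82, −2.72, −1.35 and −0.26), and PAX3, PMEL, DCT and TYRP1 were higher (0.57, 1.88, 0.92 and 2.81). Summed, the list stood at 109.1 to 137.4 TPM in treated and 189.7 to 228.2 TPM in control libraries (TPM is a level scaled by transcript length). MITF and MLANA did not pass the test and TYR was not tested. Of 13 markers of blood, endothelial, epithelial and fibroblast cells 7 were tested, with KRT5, VWF and CDH1 higher (2.65, 1.31 and 1.01), LYZ and COL1A1 lower (−1.67 and −1.23) and 2 not past the test. Their sum was 3.60 to 5.14 TPM in treated and 7.22 to 8.95 TPM in control libraries, with none at 0 throughout. LYZ was the largest part of that sum, at 2.33 ± 0.515 TPM in treated and 6.25 ± 0.904 TPM in control cells. Whether a change in the makeup of the cultures takes part in the results was not tested, and fewer cells of a type cannot be told apart from less RNA per cell.

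The sequences on which several comparisons turn are shown here from the GENCODE 29 annotation of GRCh38, in the sense of the RNA and with T for U. The first is the stretch of NEAT1 where the short form ends while the long form reads on, with the polyadenylation signal AATAAA in capitals (chr11:65426434-65426553, plus strand). The signal occupies bases 65426503 to 65426508. The annotated short transcript NEAT1-208 ends 5 bases further on, at 65426513, and NEAT1-207 ends at 65426499.
NEAT1 short end: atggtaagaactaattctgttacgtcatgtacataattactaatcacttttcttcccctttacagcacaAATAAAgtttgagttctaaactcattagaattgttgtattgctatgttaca

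Long NEAT1 and MALAT1 lack an ordinary poly(A) tail. Their 3′ ends are cut by RNase P and are known to be held in a triple helix formed by U-rich stretches and an A-rich stretch. The next lines give the 130 bases that end at the A-rich stretch in NEAT1-202 (chr11:65445411-65445540, plus strand) and in MALAT1-202 (chr11:65505987-65506116, plus strand), with the motifs TTTCTTTT, TTTTGCTTTT and AAAAAGCAAAA in capitals.
NEAT1-202 long end: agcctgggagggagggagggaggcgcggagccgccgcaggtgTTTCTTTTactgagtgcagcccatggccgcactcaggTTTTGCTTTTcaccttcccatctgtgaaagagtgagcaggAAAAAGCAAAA
MALAT1-202 end region: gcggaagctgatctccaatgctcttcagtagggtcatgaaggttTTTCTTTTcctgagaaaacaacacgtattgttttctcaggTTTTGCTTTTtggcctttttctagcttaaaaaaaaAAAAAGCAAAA
Among 56054 transcripts of noncoding type in the annotation, the 3 motifs in this order within 130 bases occurred in 1 transcript of each of these 2 genes (0.00357% of the transcripts) and on the reverse strand in 0. The motifs were taken from the ends printed here, and both transcripts are in the set searched, so these 2 matches were given in advance. What the search adds is that no other transcript matched. Singly they are less rare. On either strand, TTTCTTTT was found in 2.83%, TTTTGCTTTT in 0.187% and AAAAAGCAAAA in 0.0702% of 387665 windows of 130 bases in those transcripts.

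NORAD is shown by the repeated motif TGTANATA, the letters that Pumilio proteins recognise, in capitals. The transcript is read from the minus strand of chromosome 20, and each line is a place where a pair of motifs lies within 20 bases (chr20:36049491-36049531, chr20:36048294-36048334 and chr20:36047658-36047698).
NORAD pair near base 1430: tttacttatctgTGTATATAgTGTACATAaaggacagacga
NORAD pair near base 2627: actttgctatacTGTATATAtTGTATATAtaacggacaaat
NORAD pair near base 3263: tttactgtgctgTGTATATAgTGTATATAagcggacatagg
The annotated NORAD of 5339 bases holds 15 such motifs in the sense of the RNA and 1 in the reverse complement. Among 526 windows of the same length in other noncoding transcripts the median was 0 and the highest was 16, 36.3% held at least 1, and 0.380% held as many as NORAD. A match of letters is a description of the sequence and not a measured binding site.

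At the gene level all 10 passed the test, which has to be read against the 69.4% of all genes that did. MIAT, PVT1, CYTOR, MALAT1 and OIP5-AS1 were higher in treated cells, and NEAT1, TUG1, KCNQ1OT1, NORAD and DANCR were lower. In none of the 10 did the treated libraries overlap the control libraries in CPM, which was also so in 73.3% of all genes. The median log2 fold change of the 10 was −0.10, beside −0.02 over all genes and 0.04 over the other long noncoding genes. Both directions occurred among nuclear members and among cytoplasmic ones. Where the isoforms of a gene differ in length, a count and a level per length can move apart. With an offset for the effective transcript length of each library 6 of the 10 still passed, and in TPM tested with limma 5 did, and the members concerned are named below.

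**Figure D1:**
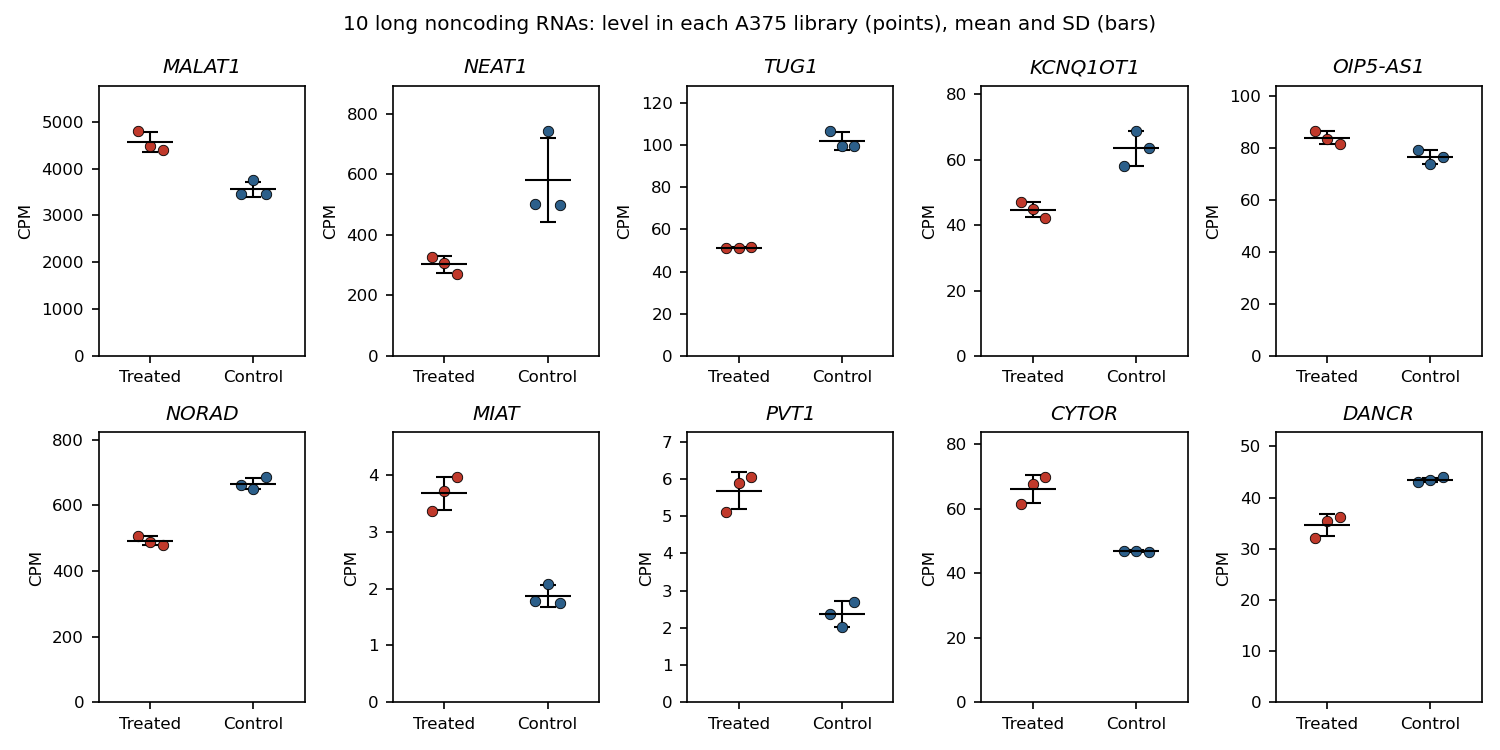
CPM (library-scaled counts, linear axes from 0) of the 10 long noncoding RNAs in each library. Points are libraries, treated on the left and control on the right, with the mean and SD of 3 as bars. The 2 groups are apart in every panel, as they were in 73.3% of all genes. The gap is small for OIP5-AS1 (81.6 to 86.5 CPM in treated and 73.9 to 79.2 CPM in control libraries). It is wide for PVT1 (5.12 to 6.04 CPM in treated and 2.03 to 2.71 CPM in control libraries).

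Levels per length spanned several orders of magnitude. MALAT1 stood highest at 1634 ± 246 TPM in treated and 1140 ± 141 TPM in control cells (SD, n = 3 each), and MIAT lowest at 0.205 ± 0.00380 TPM in treated and 0.136 ± 0.0803 TPM in control cells. The order from high to low was the same in both groups: MALAT1, NORAD, CYTOR, NEAT1, OIP5-AS1, DANCR, TUG1, PVT1, KCNQ1OT1 and MIAT. In treated libraries no neighbours in that order overlapped. In control libraries CYTOR overlapped NEAT1, OIP5-AS1 overlapped DANCR and DANCR overlapped TUG1, so their order there is not set beyond the spread of the libraries.

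NEAT1 (chromosome 11, 65422774 to 65445540, plus strand) had its long form lower and its short form higher in treated cells. Long NEAT1 stood at 4.69, 3.93 and 3.29 TPM in the treated libraries, against 13.6, 21.1 and 12.01 TPM in the control libraries. The groups did not overlap, and control replicate 2 was the highest library. Short NEAT1 stood at 32.6, 26.9 and 21.0 TPM in treated and 13.7, 19.9 and 12.4 TPM in control libraries, likewise without overlap and in the opposite direction. Short NEAT1 here is the sum of the 3 annotated transcripts of 3 to 5 kb that end near the polyadenylation signal printed above, nearly all of it NEAT1-207, and long NEAT1 is NEAT1-202 of 22743 bases.

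The ratio of the 2 forms separated the groups most sharply. The log2 ratio of long to short TPM was −2.80, −2.77 and −2.67 in treated libraries, against −0.01, 0.08 and −0.04 in control libraries. Long and short were thus near parity in each control library and far from it in each treated library. The mean ratio was −2.75 ± 0.07 in treated and 0.01 ± 0.07 in control cells (log2, SD, n = 3 each), a difference of −2.76. A two-sided exact permutation test gave p = 0.1, the smallest that 3 against 3 libraries can give. Long NEAT1 made up 9.05 ± 0.281% of NEAT1 TPM in treated and 45.6 ± 3.01% in control cells, and 38.6 ± 0.635% against 83.5 ± 1.49% of its estimated counts, where a longer transcript weighs more.

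**Figure D2:**
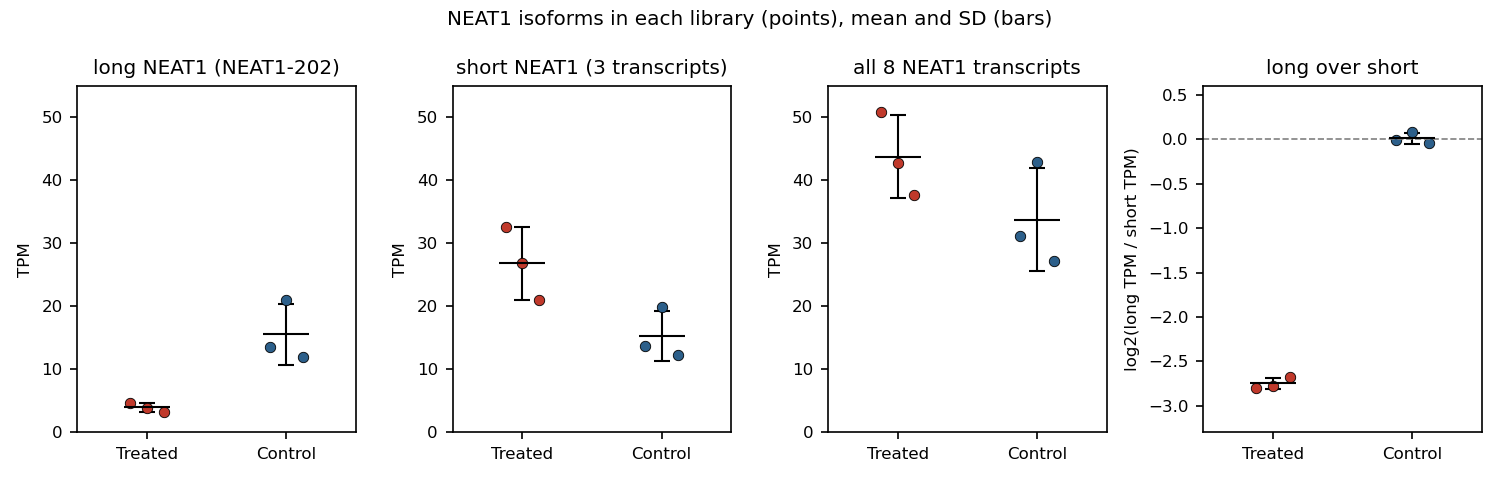
NEAT1 isoforms in each library, treated left and control right, as points with mean and SD of 3. The first 3 panels give TPM of the long transcript, of the 3 short transcripts and of all 8 NEAT1 transcripts, and the last gives the log2 ratio of long to short TPM, with a dashed line at parity. Long NEAT1 is lower and short NEAT1 higher in the treated libraries, the sums of all transcripts overlap, and the log2 ratios lie near −2.75 in treated and near 0.01 in control libraries.

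The transcript test over all 83015 transcripts, of which edgeR called 32.7%, gave the same directions for each form. NEAT1-202 was 4.09-fold lower in treated cells (log2 fold change −2.03, SE 0.20, adjusted p = 0.000857). NEAT1-207 was higher by 0.74 on the log2 scale (SE 0.19, adjusted p = 0.0321), but that call was lost when control replicate 1, control replicate 3, treated replicate 4 or treated replicate 5 was left out, with an adjusted p of 0.0886 to 0.102. NEAT1-208, at 2994 bases just below the length limit for the short form, averaged 11.3 ± 1.03 TPM in treated and 2.88 ± 0.907 TPM in control cells (log2 fold change 1.91, SE 0.25, adjusted p = 0.00253). NEAT1-204, a transcript of 1053 bases that was outside the naming rule and is given after its values were seen, averaged 1.504 TPM in treated and 0.0297 TPM in control cells and passed as well (adjusted p = 0.00648). The edgeR test of isoform use, which asks whether transcripts of a gene moved by unequal amounts and called 12.8% of 12738 genes, called NEAT1 (Simes adjusted p = 0.000433), and it did so with each library left out in turn (0.000775 to 0.0166). The short form lies wholly within the long one, so the sharing of reads between them rests on the model that made the estimated counts.

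As a single gene, NEAT1 therefore gave different answers on different scales. NEAT1 had 326.4, 307.9 and 271.7 CPM in treated libraries, against 503.3, 742.8 and 497.1 CPM in control libraries, lower in every treated library. Its log2 fold change was −0.94 (SE 0.21, edgeR adjusted p = 0.0154), a call that was lost without treated replicate 4, 5 or 6 (adjusted p = 0.0553, 0.0662 and 0.0727). Per length the direction turned. The sum of all NEAT1 transcripts was 43.8 ± 6.61 TPM in treated and 33.8 ± 8.16 TPM in control cells with overlapping libraries, and the edgeR fit with the length offset gave 0.27 (adjusted p = 0.185). The long form, the short form and the share of the long form did not overlap between groups in TPM or in estimated counts.

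MALAT1 (chromosome 11, 65497688 to 65506516, plus strand) was higher in treated cells on every scale tried. It had 4803, 4488 and 4400.2 CPM in treated libraries, against 3460.2, 3749 and 3455 CPM in control libraries. The lowest treated library stood above the highest control library. Its log2 fold change was 0.36 (SE 0.04, 1.28-fold, adjusted p = 1.88e-06), and in TPM with a pseudocount of 1 it was 0.52. Of its 10 tested transcripts 5 were higher and 0 lower, beside 17.5% higher and 15.2% lower over all transcripts. MALAT1-215 averaged 491.5 ± 54.6 TPM in treated and 366.2 ± 39.1 TPM in control cells, and MALAT1-209 averaged 246.1 ± 12.2 TPM in treated and 186.0 ± 29.9 TPM in control cells. Both passed the transcript test, with log2 fold changes of 0.36 and 0.38. The short transcripts MALAT1-211 and MALAT1-203 did not hold steady within a group. MALAT1-211 had 4266, 3794 and 0 estimated counts in treated libraries 4, 5 and 6, and 5.8, 0 and 0 in control libraries. MALAT1-203 had 1435, 551.9 and 4319 estimated counts in treated and 3750.4, 3374 and 3558 in control libraries, so that the treated library without the first had most of the second. MALAT1-211 averaged 267.8 ± 234.5 TPM in treated and 0.101 ± 0.175 TPM in control cells. MALAT1-203 averaged 138.1 ± 127.6 TPM in treated and 213.0 ± 19.1 TPM in control cells. The gene value of 0.52 in TPM includes both, and how much of it rests on them was not tested. The call of isoform use for MALAT1 missed the threshold (Simes adjusted p = 0.0932) and ranged over leave-one-out fits from 2.84e-18 to 0.99999, so no statement on its isoforms is made.

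TUG1, a conserved RNA of chromosome 22 (30969245 to 30979395, plus strand), showed the lowest fold change of the 10. TUG1 had 51.0, 51.2 and 51.6 CPM in treated libraries, against 106.6, 99.4 and 99.6 CPM in control libraries. The treated libraries lay within 1 CPM of each other and far below the controls. By the test its log2 fold change was −0.99 (SE 0.04, 1.99-fold lower, adjusted p = 5.55e-14), and it lay between −1.01 and −0.73 under all alternatives. Its level was 11.1 ± 1.32 TPM in treated and 19.1 ± 1.78 TPM in control cells.

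The loss was uneven among the 13 TUG1 transcripts tested. Of these, 4 were lower and 2 higher, beside 15.2% lower and 17.5% higher over all transcripts. TUG1-201 had 0 TPM in all 3 treated libraries, against 3.49, 3.75 and 1.99 TPM in control libraries (939, 916 and 573 estimated counts). With a limit of 3 counts per treated library, TUG1-201 was at least 241-fold lower in treated cells, taking the control mean, a limit that covers counting error and not the model that shares reads between isoforms. TUG1-210 had 0.158, 0.0131 and 0.692 TPM in treated libraries, against 3.34, 3.57 and 3.52 TPM in control libraries. The groups are far apart, yet the spread among treated libraries left the transcript test at an adjusted p of 0.0631. TUG1-216, a transcript of 7084 bases, averaged 3.25 ± 0.346 TPM in treated and 3.07 ± 0.214 TPM in control cells, with overlapping libraries (log2 fold change 0.02, SE 0.08, adjusted p = 0.872). TUG1-206 averaged 1.58 ± 0.0506 TPM in treated and 1.82 ± 0.107 TPM in control cells (adjusted p = 0.0834). Isoform use of TUG1 passed the edgeR test (Simes adjusted p = 4.79e-10) with each library left out (1.88e-10 to 5.15e-07), TUG1-201 leading it.

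**Figure D3:**
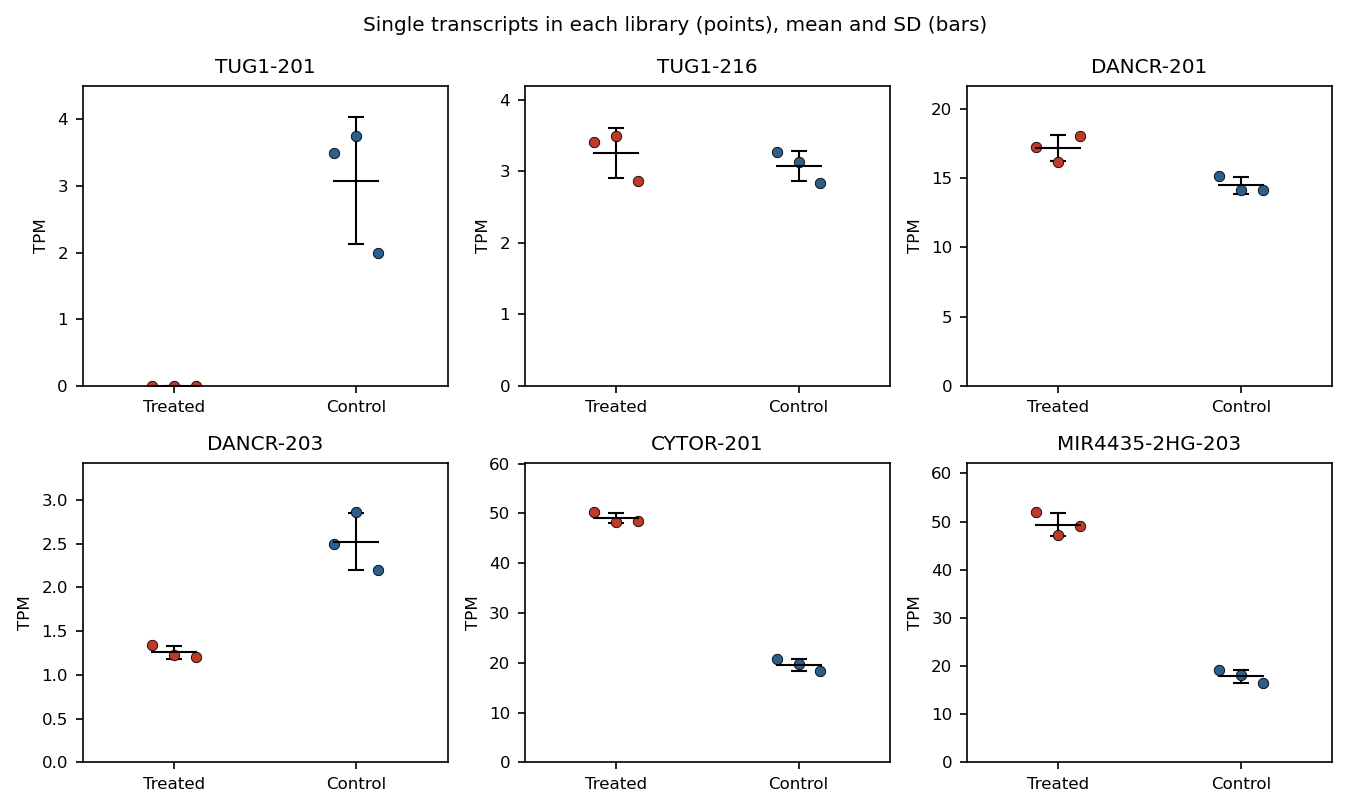
TPM of 6 single transcripts in each library, treated left and control right, as points with mean and SD of 3 and axes from 0. TUG1-201 lies at 0 in all treated libraries while TUG1-216 overlaps between groups. DANCR-203 is lower and DANCR-201 slightly higher in treated libraries, and CYTOR-201 and its near copy MIR4435-2HG-203 stand at about the same levels as each other in both groups.

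KCNQ1OT1, the long imprinted antisense RNA that silences neighbouring genes on the paternal chromosome, lies on the minus strand of chromosome 11 (2608328 to 2699994). KCNQ1OT1 had 47.0, 44.9 and 42.3 CPM in treated libraries, against 58.1, 68.8 and 63.7 CPM in control libraries. All treated libraries were below all control libraries. The log2 fold change was −0.50 (SE 0.06, 1.42-fold lower, adjusted p = 9.07e-05). At 0.381 ± 0.0478 TPM in treated and 0.504 ± 0.0593 TPM in control cells over 91667 bases it was low per length, and the test in TPM did not pass (adjusted p = 0.163 with a pseudocount of 1). The tables hold a single KCNQ1OT1 transcript, which overlaps KCNQ1 on the other strand. Strand use in the counting is not stated, so reads of the overlapping introns may not have been told apart by strand.

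NORAD (chromosome 20, 36045622 to 36050960, minus strand) was the second most abundant per length and has 1 transcript in the tables. NORAD had 507.1, 489.6 and 480.6 CPM in treated libraries, against 663.7, 650.2 and 685.2 CPM in control libraries. The groups were separated by far more than their spread. Expressed as a log2 fold change this was −0.44 (SE 0.03, 1.35-fold lower, adjusted p = 3.96e-10), and with the length offset it was −0.45. Its level was 79.2 ± 8.34 TPM in treated and 100.3 ± 4.52 TPM in control cells. NORAD was thus at 0.739 times its control level, relative to the other genes. The transcript counted differs in length from the annotated one in which the 15 Pumilio motifs were found.

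OIP5-AS1 is the human counterpart of Cyrano, known in mouse for directing the decay of a microRNA. It had 86.5, 83.4 and 81.6 CPM in treated libraries, against 79.2, 73.9 and 76.4 CPM in control libraries. Treated libraries were all above the controls, by a small margin. That made a log2 fold change of 0.13 (SE 0.04, adjusted p = 0.00363). The difference did not hold per length, where it was 0.01 with the offset (adjusted p = 0.879) and the TPM of the groups overlapped at 23.6 ± 2.16 in treated and 21.8 ± 2.43 in control cells. Its transcript OIP5-AS1-201 of 8829 bases averaged 9.001 ± 0.935 TPM in treated and 7.37 ± 0.429 TPM in control cells and passed the transcript test (log2 fold change 0.21, SE 0.04, adjusted p = 0.00965). OIP5-AS1-204, of 676 bases with a retained intron, averaged 10.6 ± 0.498 TPM in treated and 9.37 ± 1.32 TPM in control cells and did not pass (adjusted p = 0.497).

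CYTOR, also known as LINC00152 and raised in many tumours, comes with a near-identical copy on the same chromosome, MIR4435-2HG, and a read from one can be given to the other. CYTOR had 61.4, 67.7 and 69.7 CPM in treated libraries, against 47.0, 47.0 and 46.5 CPM in control libraries. The control libraries were close to identical and all treated libraries lay above them. The log2 fold change of CYTOR was 0.50 (SE 0.04, 1.41-fold, adjusted p = 1.32e-08). MIR4435-2HG averaged 42.0 ± 0.312 CPM in treated and 18.9 ± 0.750 CPM in control cells, a log2 fold change of 1.15 (SE 0.04, 2.23-fold, adjusted p = 3.72e-14). Summed as 1 gene, a choice made after the data were seen, the pair was higher by 0.72 on the log2 scale (adjusted p = 2.64e-12). The direction is shared, while the split of the rise between the copies is uncertain.

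The printed stretches show how little tells the copies apart. CYTOR-201 and MIR4435-2HG-203 are identical at 509 of 514 aligned bases (99.0%), and the lines give bases 201 to 300 of CYTOR-201 (chromosome 2, plus strand, exons between 87455429 and 87521518) and the matching bases 186 to 285 of MIR4435-2HG-203 (chromosome 2, minus strand, exons between 111429309 and 111495086), with the bases that differ in capitals.
CYTOR-201: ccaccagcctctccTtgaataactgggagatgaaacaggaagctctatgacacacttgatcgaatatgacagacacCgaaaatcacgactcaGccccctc
MIR4435-2HG-203: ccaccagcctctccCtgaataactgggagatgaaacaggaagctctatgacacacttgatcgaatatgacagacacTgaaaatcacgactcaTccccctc
Counted from 1 at the 5′ end of CYTOR-201 and written as its base, the position and the base of the copy, the 5 substitutions are T215C, C277T, G293T, C374T and A478G. CYTOR-201 averaged 49.0 ± 1.03 TPM in treated and 19.6 ± 1.17 TPM in control cells (log2 fold change 1.25, SE 0.06, adjusted p = 4.8e-05). MIR4435-2HG-203 averaged 49.4 ± 2.39 TPM in treated and 17.9 ± 1.31 TPM in control cells (log2 fold change 1.39, SE 0.06). CYTOR-202, of 683 bases, went the other way at 2.69 ± 0.159 TPM in treated and 5.19 ± 0.396 TPM in control cells (log2 fold change −1.02, SE 0.15, adjusted p = 0.00399). The call of isoform use for CYTOR (Simes adjusted p = 0.0163) was lost without control replicate 1 or 2 or treated replicate 4 or 6 (adjusted p up to 0.294).

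DANCR, which hosts a small nucleolar RNA and is known for holding back differentiation, lies on chromosome 4 (52712404 to 52720351, plus strand). DANCR had 32.1, 35.5 and 36.3 CPM in treated libraries, against 43.0, 43.4 and 43.9 CPM in control libraries. Every treated library was below the controls, treated replicate 4 the lowest. The log2 fold change was −0.33 (SE 0.04, 1.25-fold lower, adjusted p = 2.97e-06), but no such difference was seen per length: DANCR averaged 20.1 ± 0.246 TPM in treated and 19.5 ± 0.502 TPM in control cells with overlapping libraries, and with the offset the value was −0.06 (adjusted p = 0.415). The transcripts differed in direction. DANCR-203, annotated as retaining an intron and 6065 bases long in the tables (336 in the annotation), averaged 1.26 ± 0.0738 TPM in treated and 2.52 ± 0.327 TPM in control cells (log2 fold change −1.07, SE 0.08, adjusted p = 0.000249). DANCR-201, the main product, averaged 17.1 ± 0.923 TPM in treated and 14.5 ± 0.597 TPM in control cells and did not pass (log2 fold change 0.19, SE 0.09, adjusted p = 0.163). Isoform use of DANCR was not called either (Simes adjusted p = 0.358), though it was with a stricter filter on low counts (0.0150) and without control replicate 1 (0.0142).

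PVT1 rose most among the 10. PVT1 had 5.12, 5.90 and 6.04 CPM in treated libraries, against 2.38, 2.03 and 2.71 CPM in control libraries. Treated and control libraries were well apart at a low level. The log2 fold change was 1.26 (SE 0.12, 2.39-fold, adjusted p = 6.50e-08), and its level was 3.11 ± 0.0756 TPM in treated and 1.11 ± 0.170 TPM in control cells. Among its 5 tested transcripts PVT1-201 was called (edgeR adjusted p = 0.00731), where 32.7% were called over all transcripts. It had 41.7, 61.7 and 78.3 estimated counts in treated libraries and 0, 2.3 and 3.8 in control libraries. PVT1-201 is 1017 bases long in the tables and 754 in the annotation, and 16 of the 20 PVT1 transcripts differ in length between them, so their names may stand for other models. The call of isoform use for PVT1 (Simes adjusted p = 0.00156) was lost with each library left out in turn (0.0666 to 0.288).

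MIAT, a nuclear RNA first tied to myocardial infarction, was scarce. MIAT had 3.37, 3.70 and 3.95 CPM in treated libraries, against 1.78, 2.09 and 1.74 CPM in control libraries. The groups did not overlap. On the log2 scale MIAT was higher by 0.97 (SE 0.13, 1.96-fold, adjusted p = 4.04e-06), with 179.0 to 192.6 estimated counts in a treated library and 91.8 to 105.5 in a control library. Its nearly alike long transcripts traded places between libraries: MIAT-221 held 0, 0.164 and 0.165 TPM in treated libraries and 0 in the controls, while MIAT-219 held 0.207, 0.0374 and 0.0433 TPM in treated and 0.0971, 0.111 and 0.0240 TPM in control libraries. With the length offset the gene value was 0.57 and did not pass (adjusted p = 0.150).

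**Figure D4:**
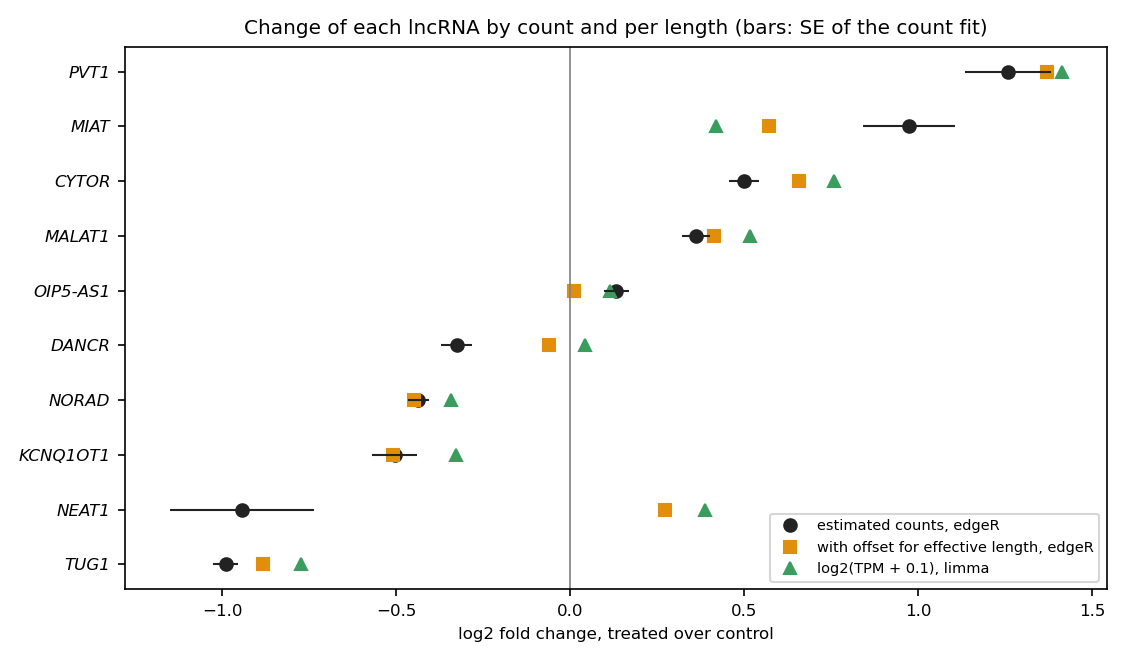
Log2 fold change, treated over control, of each long noncoding RNA by estimated counts with edgeR (circles, with SE), with an offset for effective transcript length (squares) and by log2(TPM + 0.1) with limma (triangles), ordered by the first. PVT1, CYTOR, MALAT1, NORAD, KCNQ1OT1 and TUG1 stay on their side of 0, while NEAT1 crosses it, at −0.94 by counts and 0.27 with the offset, and so does DANCR, at −0.33 by counts and 0.042 in TPM.

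Across the 10 genes, 143 transcripts are in the tables and 69 could be tested. Among the tested, 18 were higher and 9 lower in treated cells, against 17.5% and 15.2% of all transcripts, and 42 did not pass. Isoform use was called in 4 of the 7 genes with at least 2 tested transcripts, TUG1, NEAT1, PVT1 and CYTOR, with 12.8% called over all genes. Of these 4 calls, those of TUG1 and NEAT1 held with each library left out. Set against the other transcripts of their own gene, 12 of 66 transcripts were called, 6 relatively higher and 6 relatively lower in treated cells, where the test called 3.28% of 73934 transcripts over the whole table, 2.1% higher and 1.18% lower. Of the 12, 5 belong to TUG1 and 3 to NEAT1.

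The mRNAs of proteins that gather with NEAT1 were mostly lower. Of 16 paraspeckle proteins, 11 were lower (34.5% over all genes), 3 higher and 2 did not pass, with a median log2 fold change of −0.51 beside −0.02 over all genes. HNRNPA1, an abundant splicing regulator with many pseudogene copies that could share its reads, averaged 500.7 ± 1.85 CPM in treated and 1529.8 ± 62.7 CPM in control cells (log2 fold change −1.61, SE 0.03). TARDBP, the RNA-binding protein TDP-43, averaged 84.9 ± 1.23 CPM in treated and 190.0 ± 7.41 CPM in control cells (−1.16, SE 0.03). The FET proteins TAF15 and EWSR1 had log2 fold changes of −0.97 and −0.72. NONO, a core paraspeckle protein outside the naming rule and given after its values were seen, averaged 230.8 CPM in treated and 840.4 CPM in control cells (−1.86, SE 0.11, adjusted p = 0.000119), and its partner SFPQ likewise had −0.43. Higher were CPSF7 at 0.71, PSPC1 at 0.47 and RBM14 at 0.38. A trio of factors known to steer the choice of the NEAT1 3′ end, also outside the rule, were lower: CPSF6 (−0.49) and NUDT21 (−0.69), which promote the short form, and HNRNPK (−0.52), which favours the long one. The trio is a choice from the list, in which CPSF7, named above, was higher.

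Nuclear speckle and SR proteins, the surroundings of MALAT1, were 10 lower, 4 higher and 4 not passing among 18 (34.5% lower and 34.9% higher over all genes), with a median of −0.24. PNN and SRSF2, proteins of splicing, had log2 fold changes of −0.97 and −0.79. The kinases CLK1 and CLK4, which phosphorylate SR proteins, were higher at 1.00 and 1.03, CLK1 averaging 51.2 ± 0.871 CPM in treated and 25.6 ± 0.987 CPM in control cells. SON, which scaffolds the speckle and is named outside the rule after its values were seen, was at 114.3 CPM in treated and 109.4 CPM in control cells and did not pass (adjusted p = 0.0879).

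Factors that cut or bind the 3′ ends printed above were 6 higher, 4 lower and 3 not passing of 13, shares near the 34.9% higher and 34.5% lower over all genes, with a median of 0.09. METTL16, which binds the MALAT1 triple helix and also methylates the mRNA of the methionine adenosyltransferase MAT2A, averaged 112.3 ± 3.82 CPM in treated and 53.3 ± 0.705 CPM in control cells (log2 fold change 1.07, SE 0.03, adjusted p = 1.16e-14). The RNase P and MRP subunits RPP38, RPP14 and POP7 were higher at 1.73, 1.42 and 0.81, and POP1 was lower at −0.67. ELAC2, which trims the small RNA released from the MALAT1 end, averaged 80.6 ± 1.63 CPM in treated and 158.9 ± 5.44 CPM in control cells (−0.98, SE 0.03). RPPH1, the RNA of RNase P and likewise outside the rule, was at 3614 CPM in treated and 3701 CPM in control cells and did not pass (adjusted p = 0.732).

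Of the 8 NORAD partners 7 were lower (34.5% over all genes), with a list median of −0.33. PUM2, a Pumilio protein, averaged 71.0 ± 2.66 CPM in treated and 92.7 ± 4.33 CPM in control cells (log2 fold change −0.39, SE 0.04). KHDRBS1 (SAM68), needed for NORAD to act on Pumilio proteins, had −1.01, and the export factor ALYREF had −1.02. RBMX, a NORAD-binding protein, had −0.55.

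Genes of 2 machineries of RNA decay were also counted. The nuclear exosome with its adaptors had 7 higher, 8 lower and 3 not passing of 18, near the 34.9% and 34.5% over all genes, with a median of 0.05 that turned to −0.03 with the length offset. The helicase MTREX and the nuclease EXOSC10 had log2 fold changes of −0.68 and −0.71, and ZCCHC7 and DIS3 had 0.66 and 0.41. Nonsense-mediated decay factors were 7 higher, 1 lower and 2 not passing of 10 (34.9% higher and 34.5% lower over all genes), with a median of 0.37. SMG5 averaged 463.6 ± 8.13 CPM in treated and 220.8 ± 1.85 CPM in control cells (1.07, SE 0.03), SMG8 had 1.04 and UPF2 0.55. SMG9 was the lower one at −0.15, which was not called when libraries were scaled by their totals alone.

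**Figure D5:**
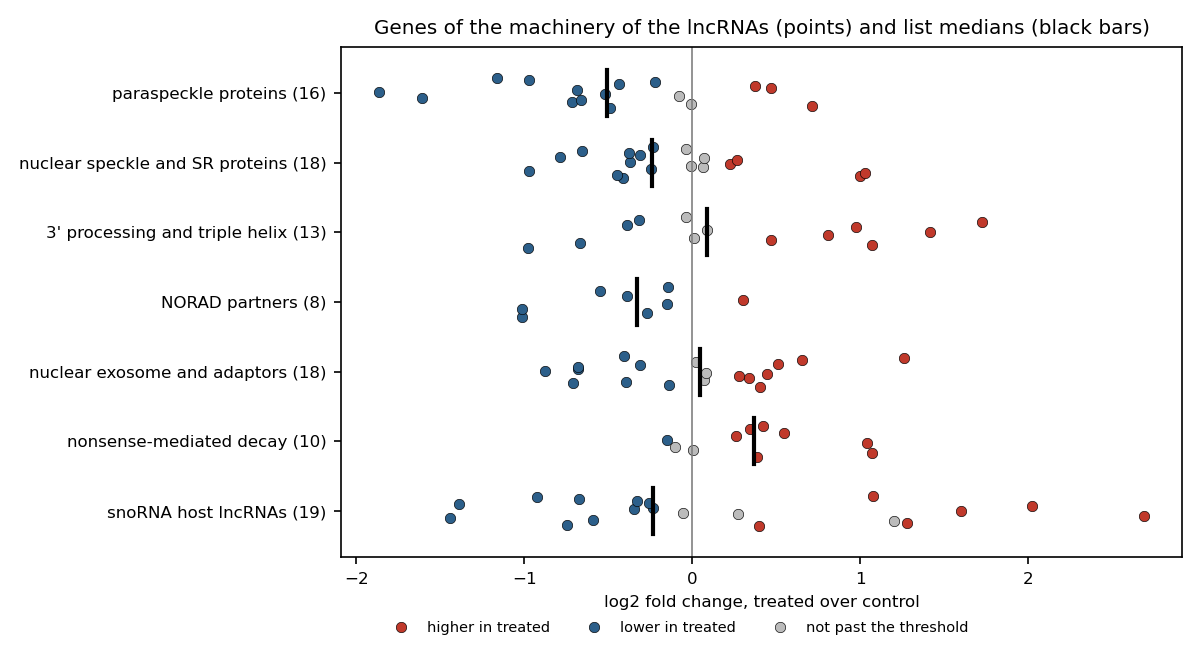
Log2 fold change, treated over control, of each tested gene (points) in 7 lists of genes tied to the 10 long noncoding RNAs, with the number tested in brackets and the list median as a black bar. Red points were higher, blue points lower and grey points not past an adjusted p of 0.05 in edgeR. Paraspeckle proteins lie mostly left of 0 (median −0.51) and nonsense-mediated decay factors mostly right of it (median 0.37).

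Genes beside the 10 were read for their own values. MYC, upstream of PVT1 on chromosome 8, averaged 101.2 ± 7.93 CPM in treated and 16.5 ± 2.22 CPM in control cells, a log2 fold change of 2.62 (SE 0.12, adjusted p = 2.56e-05), above the 1.26 of PVT1 itself, and CYRIB on the other side had −0.71. CDKN1C, the cell-cycle inhibitor in the imprinted domain of KCNQ1OT1, averaged 5.25 ± 0.546 CPM in treated and 13.6 ± 0.603 CPM in control cells (−1.37, SE 0.08, adjusted p = 7.34e-11), lower as KCNQ1OT1 was, and KCNQ1 did not pass the filter on low counts. FRMD8, the nearest coding gene before NEAT1, had −0.40. OIP5, which overlaps OIP5-AS1 on the opposite strand, had −0.63, and its neighbours CHP1 and NUSAP1 had −0.72 and −1.01, while OIP5-AS1 was slightly higher.

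At TUG1, MORC2, which lies 947 bases away, averaged 41.1 ± 3.70 CPM in treated and 39.1 ± 2.41 CPM in control cells and did not pass (adjusted p = 0.419), and SMTN had −0.16. Beside NORAD, CNBD2 had 1.40 and EPB41L1 −0.75. Around MIAT, an unnamed antisense gene that overlaps it, ENSG00000206028, averaged 2.26 ± 0.457 CPM in treated and 0.164 ± 0.0549 CPM in control cells (3.77, SE 0.26, adjusted p = 4.98e-10). Strand use in the counting is not stated, so reads of this gene and of MIAT may have been taken for each other. MIATNB, which overlaps MIAT on the same strand, and MN1 did not pass, and TPST2 had −0.25. Of the genes that overlap CYTOR, NCAL1 on the same strand had 2.13 and LINC01943 on the opposite strand 1.07, and the flanking PLGLB1 and PLGLB2 did not pass. Beside DANCR, ERVMER34-1 had 1.73 and USP46 did not pass.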

How the data were processed

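RNA from 3 treated and 3 control cultures was sequenced. Per the file headers, the deposited tables give for each transcript an estimated count (expected count, not whole and not scaled between libraries), TPM (scaled by effective length within a library), and length and effective length in bases. Tools listed by the submitters' processing notes are kallisto 0.45.0 and DESeq2 1.30.0, whose roles are not given. Library preparation, genome build and index release are not given in the sources used here.

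Of 244939 transcripts, 203436 were matched by identifier to GENCODE 29 (GRCh38). The other 41503 (4.86% to 5.13% of the counts) were left out, so a gene's level may be a part of its total. Of the matched transcripts 25042 have another length in the annotation, so the index was of another release. In 25.6% to 27.1% of transcripts the effective length was above the length.

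Estimated counts were summed per gene, rounded, filtered with filterByExpr (minimum count 10, minimum total 15), scaled by TMM and tested with the two-sided quasi-likelihood test of edgeR 4.0.16, with Benjamini-Hochberg adjustment over all features at 0.05. All adjusted p-values of single genes and transcripts are from edgeR unless limma or DESeq2 is named. Transcripts were fitted likewise, and isoform use with diffSpliceDGE and a Simes p per gene. TMM makes fold changes relative to the other genes, not to RNA per cell. CPM use TMM-scaled library sizes. The scripts were tested on simulated counts with known changes in a small part of the features and no sharing of reads between isoforms. That test therefore does not cover changes as wide as those seen here, nor the sharing of reads. Estimated counts carry the error of sharing reads between isoforms, which the files do not measure, and the limit for a count of 0 is 3 counts per library. The common biological coefficient of variation was 0.0740.

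The 10 genes, the gene lists and the tests were chosen with earlier results of these data known. Named were the 10 genes, up to 4 of each gene's transcripts holding at least 5% of its TPM in either group, up to 4 genes per direction of each list by adjusted p, the genes that overlap or flank the 10, and, for other long noncoding genes of at least 10 CPM, the 3 highest and 3 lowest fold changes with groups apart. Genes of the partner lists and transcripts given outside this rule are marked as such, and markers are named from their whole lists. Alternatives were 17 settings and 1 added after seeing the data, run with edgeR, limma 3.58.1 (log2(TPM + 1) or log2(TPM + 0.1)) and DESeq2 1.42.0. Results of 2 genes that the rule takes are not reported here.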

Additional observations from a re-analysis of the deposited data

How the results depend on the processing

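No paired analysis was possible because no replicate number is shared between treated and control cultures. The number of the 10 genes called was 6 with the effective length offset, and 5 by limma on log2(TPM + 1) and on log2(TPM + 0.1), against 10 with edgeR on counts and with DESeq2. MALAT1, TUG1, NORAD, PVT1 and CYTOR kept their call and direction in every fit run. The NEAT1 gene value reversed to 0.27 with the offset, 0.38 on log2(TPM + 1) and 0.39 on log2(TPM + 0.1), as its long form weighs more in counts, and the DANCR value to 0.041 and 0.042 on these TPM scales in turn; none of these passed. For DANCR the cause was not tested. Among transcripts that missed the threshold in each of these fits, leaving out 1 library gave −0.047 to 0.079 for TUG1-216, −0.88 to 0.60 for MIAT-219 and −0.040 to 0.61 for PVT1-219, crossing 0. With 1 library left out in turn, 15050 to 15335 genes and 9 to 10 of the 10 genes were called. There were also 21 to 24 calls of their transcripts (27 with all libraries) and 3 to 4 calls of isoform use. Of the genes of the 7 partner lists, 86 to 89 were called (85 with all libraries, where 69.4% of all genes were called). The long to short NEAT1 difference was −2.80 to −2.72 with 1 library left out. It was −3.07 with all other NEAT1 transcripts as short and −2.77 in estimated counts. With 3 libraries a group, exact tests of single values cannot pass 0.05, and transcripts under about 100 estimated counts, those of MIAT and PVT1, are the least certain.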

Other observations

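Outside the 10, small nucleolar RNA hosts, whose introns carry guides for the modification of ribosomal RNA, went both ways. Their list holds SNHG32, which is annotated as protein-coding and so is not counted among the other long noncoding genes. Of 19 tested, 6 were higher, 10 lower and 3 did not pass (28.0% higher and 21.1% lower over the other long noncoding genes), with a median log2 fold change of −0.23 beside 0.04 over the other long noncoding genes. SNHG15 averaged 63.3 ± 1.26 CPM in treated and 9.79 ± 0.535 CPM in control cells (log2 fold change 2.69, SE 0.04), SNHG32 108.2 ± 2.31 CPM in treated and 26.6 ± 0.606 CPM in control cells (2.02, SE 0.04), SNHG20 had 1.60 and ZFAS1 1.08. Lower were SNHG14, at 40.7 ± 1.44 CPM in treated and 110.7 ± 3.67 CPM in control cells (−1.44, SE 0.04), and SNHG4 at −1.39. GAS5 and SNHG1, well-studied hosts outside the naming rule and given after their values were seen, had −0.75 and 1.28. All of these passed the edgeR test.

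The largest rises among long noncoding genes of at least 10 CPM with groups apart were those of an unnamed antisense gene on chromosome 21, ENSG00000273199, at 36.1 ± 1.44 CPM in treated and 0.674 ± 0.0718 CPM in control cells (log2 fold change 5.74, SE 0.08), and of ENSG00000272114 on chromosome 6, at 20.9 ± 0.284 CPM in treated and 2.64 ± 0.189 CPM in control cells (2.98, SE 0.07), followed by SNHG15. The largest falls were those of LINC01029 (−1.92, SE 0.08), TUBA1B-AS1 (−1.72, SE 0.06) and ENSG00000272540 (−1.71, SE 0.28). Antisense genes may hold reads of the gene on the other strand, since strand use in the counting is not stated.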
